A study of Mus musculus with 4 samples.

Results

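Fetal liver RNA from CD- and HFD-fed dams was examined for the placental prolactins and for the pregnancy-specific glycoproteins and carcinoembryonic antigen-related genes that are clustered with each other in the mouse. The genes were taken by symbol: Prl followed by a digit, a letter and digits, Psg followed by a number, and Ceacam3, Ceacam5, Ceacam9, Ceacam11, Ceacam12, Ceacam13, Ceacam14 and Ceacam15. RefSeq held 46 such genes, and 44 of the 22909 genes with a named probe met the rule, of which 23 were Prl, 13 Psg and 8 Ceacam genes. Prl2c2 and Prl3d3 had no named probe. For each gene the brightest probe was used, selected on the mean log2 intensity over all 4 arrays. The families themselves were selected on earlier results of these arrays, in which several of their genes were lower in the HFD group, so the comparison of the diets is given as a description of these genes and not as independent evidence of its direction. For the same reason no unadjusted p-value is printed for a single gene, and a gene is said to have passed or not passed the cutoffs given below.

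In rodents the prolactin gene was duplicated many times, and most of the copies are expressed by the trophoblast of the placenta or by the decidua, the uterine lining of pregnancy. Some of them are hormones that act through the prolactin receptor, such as the placental lactogens, and others act on blood vessels or immune cells or have no known receptor. The Psg genes encode secreted proteins of the immunoglobulin superfamily that the trophoblast releases into the maternal blood, and the rodent Ceacam genes that lie among them are related genes with expression in the placenta. Fetal liver is known for hepatoblasts and blood-forming cells, and neither family is known as one of its main products.

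Livers were taken from fetuses between 14 and 15 days post coitum. The dams were female C57BL/6J mice fed during gestation either a CD, with 4.3% of energy from fat, or an HFD, with 60% of energy from fat. There were 2 biological replicates per diet, named CD 1, CD 2, HFD 1 and HFD 2, and the number of fetuses or dams in each is not given in the sources used here, so p-values measure the spread between these samples. Each replicate was hybridised to a single-colour Agilent array, on which a brighter spot stands for more of the transcript it binds, and the 4 arrays lay on 1 slide. Values are given as levels, which are log2 intensities after subtraction of their array's 75th percentile, and a spot counted as detected when its image analysis flag said that it was well above background.

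The arrays carried the markers of fetal liver. All 10 liver genes and all 8 red cell genes examined were detected on every array, with log2 fold changes (HFD minus CD) between -0.10 and 0.34, and none of the 18 passed the cutoffs used here, an unadjusted limma p of 0.05 and a change of 2-fold. The labels give all 4 samples as female and do not say whether this is the dam or the fetus. Transcripts of the Y chromosome went against that label on CD 1 and HFD 1, where Eif2s3y had levels of 1.45 and 1.84, against -6.74 and -6.32 on CD 2 and HFD 2. Xist, which is transcribed from the inactive X chromosome, had levels of -0.65 and -0.74 on CD 2 and HFD 2 and of -8.29 and -6.84 on CD 1 and HFD 1. Each diet thus had 1 array of either kind, and that split coincides with the replicate number.

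Most of the placental genes were lower in the fetal livers of the HFD group. Of the 44 genes, 25 passed the cutoffs in the lower direction (11 Prl, 8 Psg and 6 Ceacam) and 0 in the higher direction. Over all 22909 genes, 0.834% passed in the lower and 0.519% in the higher direction. Both HFD arrays lay under both CD arrays for 33 of the 44 genes (16 Prl, 11 Psg and 6 Ceacam), against 10.2% of all genes, and over both for 1, against 19.4%. The median log2 fold change was -2.85 over the 44 genes, against 0.02 over all genes. It was -2.51 for the Prl, -2.64 for the Psg and -4.09 for the Ceacam genes. No gene passed after Benjamini-Hochberg adjustment over all genes, where limma gave every member an adjusted p of 1.00 and the smallest adjusted p of any gene was 0.465 (750 genes had an unadjusted p under 0.05, 25 of them members).

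The count and the median rested in part on 1 array. Without CD 2, which leaves 1 CD array, about as many of the 25 failed the cutoffs as passed them, and the median log2 fold change was -1.70. Each of the 25 but Prl7c1 had a less negative log2 fold change without CD 2. Without CD 1 the median was -4.11. CD 2 was the highest of the 4 arrays for 40 of the 44 genes, and HFD 2 was the lowest for 31. These counts were not taken over all genes, and shares over all genes at a 2-fold difference are given below. The counts include Ceacam9, Ceacam15, Prl5a1 and Prl3c1, which were highest on CD 2 but detected on no array. The log2 75th percentile subtracted was also lowest on CD 2, at 9.46 against 9.83 to 10.07 on the other arrays. With bulk RNA, fewer cells of a type and less RNA per cell cannot be told apart. Nor do the arrays show which tissue the cells with these transcripts came from.

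**Figure D1:**
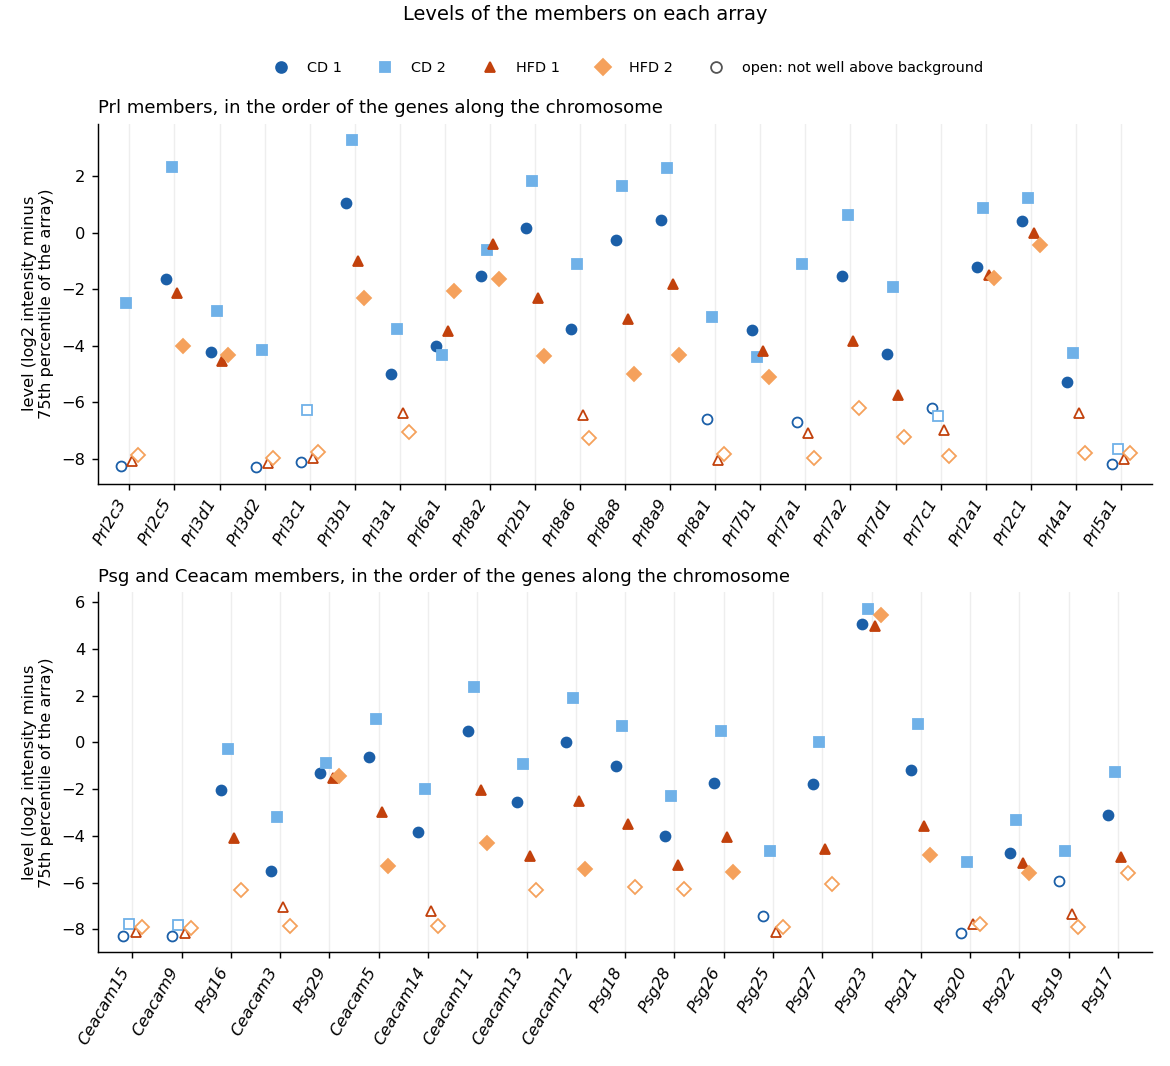
Levels of the 44 genes on each array (vertical axis, log2 intensity relative to the 75th percentile), with 1 column per gene in the order of the genes along chromosome 13 (upper panel) and chromosome 7 (lower panel). Filled points were well above background and open points were not; for most genes CD 2 is highest, CD 1 follows, and HFD 1 and HFD 2 lie below, while Psg23, Prl8a2 and Prl6a1 do not follow that order.

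Many of these genes were near or under the detection limit in the HFD livers. Of the 44, 32 were detected on CD 1, 39 on CD 2, 27 on HFD 1 and 19 on HFD 2. Of the 25 that passed, 10 were detected on all 4 arrays, 8 on both CD arrays and HFD 1, 5 on both CD arrays and neither HFD array, 1 on CD 2 alone (Psg19) and 1 on no array (Prl7c1). A gene detected on neither HFD array has only a bound there, and its fold is given below as at least the CD mean over, on each HFD array, the lowest signal well above background or the gene's own value if higher. With such genes at their bound where both CD arrays detected them, and otherwise at 0, the median log2 fold change was -1.41 over the 44 genes, -1.02 for the Prl, -2.64 for the Psg and -3.35 for the Ceacam genes.

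Among the prolactin family hormones, Prl3b1 encodes placental lactogen II, the main placental lactogen of the second part of mouse pregnancy, which binds the prolactin receptor. Its levels were 1.03 on CD 1, 3.27 on CD 2, -0.995 on HFD 1 and -2.31 on HFD 2. All 4 values were well above background, and both HFD arrays were below both CD arrays. Prl3b1 fell by 3.80 on the log2 scale (standard error 0.91), which is 13.9-fold. Leaving out 1 array at a time gave log2 fold changes between -4.92 and -2.68.

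Placental lactogen I, the earlier lactogen of trophoblast giant cells, is encoded by the Prl3d genes. Prl3d1 had levels of -4.23 and -2.78 in the CD livers against -4.52 and -4.32 in the HFD livers. CD 1 and the HFD arrays were thus close together, and the log2 fold change of -0.92 (standard error 0.53) did not pass. Prl3d2 was detected on CD 2 alone, at -4.14, and its other levels lay between -8.28 and -7.95. The proliferins, hormones of giant cells that act on blood vessels, gave a like pattern. Prl2c3 was detected on CD 2 alone, at -2.47 against -8.24 on CD 1, while Prl2c5 had levels of -1.62 and 2.33 in the CD livers against -2.12 and -4.00 in the HFD livers. The log2 fold change of Prl2c5 was -3.41 (standard error 1.52), and it was -1.43 without CD 2 and -5.39 without CD 1. Prl2c3 and Prl2c5 are close copies of each other, as are the Prl3d genes and several Psg genes, so a probe may see more than 1 of them. Prl7d1, the proliferin-related protein that restrains vessel growth, had levels of -4.29 and -1.94 in the CD livers against -5.74 and -7.22 in the HFD livers, with HFD 2 not above background. Prl7d1 fell by 3.36 (standard error 0.97), but with CD 2 left out the log2 fold change was -2.18 and did not pass.

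Several Prl8a genes are known as products of the spongiotrophoblast, the layer between giant cells and labyrinth. Prl8a8 had levels of -0.28 on CD 1, 1.66 on CD 2, -3.05 on HFD 1 and -4.98 on HFD 2. Prl8a9 had levels of 0.45, 2.28, -1.80 and -4.32 in the same order. In both genes the HFD arrays lay below the CD arrays, and HFD 2 lay well below HFD 1. Prl8a8 fell by 4.70 (standard error 0.96), or 26.1-fold, and Prl8a9 fell by 4.425 (standard error 1.09), or 21.5-fold. Prl8a8 still passed without CD 2 (log2 fold change -3.73), and Prl8a9 did not (-3.51). Prl8a6 had levels of -3.42 and -1.12 in the CD livers and was not well above background on the HFD arrays (-6.44 and -7.26). Prl8a6 was at least 11.4-fold lower in the HFD group, and at least 5.14-fold lower without CD 2. Prl8a1 was detected on CD 2 alone, at -2.97, and did not pass.

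Not every gene of the prolactin family moved in this way. Prl8a2, the decidual prolactin-related protein, is made by the maternal decidua. Its levels were -1.53 and -0.62 in the CD livers against -0.40 and -1.63 in the HFD livers. The groups overlapped, and the log2 fold change was 0.06 (standard error 0.55), turning to -0.40 without CD 1 and -0.56 without HFD 1. Prl6a1 was the 1 member with both HFD arrays over both CD arrays. Its levels were -4.00 and -4.32 in the CD livers against -3.47 and -2.07 in the HFD livers, all well above background. The log2 fold change of 1.39 (standard error 0.52) lay just outside the cutoff and ranged from 0.69 without HFD 2 to 2.09 without HFD 1. A dimmer probe of Prl6a1 had a log2 fold change of 0.63. Prl5a1 was at background throughout.

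Prl2c1, Prl2a1 and Prl7b1 differed less between the diets. Prl2c1 had levels of 0.42, 1.23, -0.01 and -0.45 on CD 1, CD 2, HFD 1 and HFD 2. Prl2c1 fell by 1.055 (standard error 0.35), and the log2 fold change was -0.65 without CD 2 and -0.84 without HFD 2, where it did not pass. Prl2a1 had levels of -1.21, 0.86, -1.49 and -1.61, so that CD 2 stood apart from the other 3 arrays, and its log2 fold change of -1.38 (standard error 0.73) was -0.34 without CD 2 and -2.41 without CD 1. Prl7b1 had levels of -3.43 and -4.39 in the CD livers against -4.18 and -5.08 in the HFD livers, and the groups overlapped. The other Prl genes that passed were Prl2b1 (log2 fold change -4.32, -3.50 without CD 2), Prl7a2 (-4.56, -3.48 without CD 2), Prl3a1 (at least 2.99-fold lower, 1.71-fold without CD 2), Prl4a1 (at least 2.02-fold lower) and Prl7c1, which was not well above background on any array and has no fold. Of these, Prl2b1, Prl7a2, Prl4a1 and Prl7c1 did not pass without CD 2. Prl7a1, with levels of -6.71 and -1.12 in the CD livers, was detected on CD 2 alone and did not pass, and Prl3c1 was at background on every array.

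The Psg genes gave the same order of arrays in most members. Psg18 had levels of -1.01 on CD 1, 0.68 on CD 2, -3.51 on HFD 1 and -6.18 on HFD 2, where it was not well above background. Psg27 had levels of -1.79, 0.02, -4.55 and -6.04, and was not well above background on HFD 2 either. The log2 fold change was -4.68 for Psg18 (standard error 1.105) and -4.41 for Psg27 (standard error 0.83). Without CD 2 Psg27 still passed (-3.51) and Psg18 did not (-3.84). Psg26 had levels of -1.72, 0.50, -4.05 and -5.55, and Psg21 of -1.19, 0.80, -3.58 and -4.81, each well above background on all 4 arrays. Psg26 fell by 4.19 (standard error 0.94) and Psg21 fell by 3.999 (standard error 0.82), and both passed without CD 2 (-3.08 and -3.002). Psg16, Psg17 and Psg28 also passed, with log2 fold changes of -4.02, -3.05 and -2.64, as did Psg19, which was detected on CD 2 alone and has no fold. Without CD 2, Psg17 (-2.12) still passed, and Psg16 (-3.14) and Psg28 (-1.78) did not. Psg19 passed there too, but no array left detected it.

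Psg23 and Psg29 stood apart within their family. Psg23 had levels of 5.08 on CD 1, 5.72 on CD 2, 4.97 on HFD 1 and 5.44 on HFD 2, and its intensity ran from 30404 to 39537 over the 4 arrays. The groups overlapped, and the log2 fold change of -0.19 (standard error 0.31) turned to 0.13 without CD 2 and 0.04 without HFD 1. Psg29 had levels of -1.31 and -0.89 in the CD livers against -1.51 and -1.43 in the HFD livers. Its log2 fold change was -0.37 (standard error 0.21). Psg20, Psg22 and Psg25 did not pass either; Psg22 was detected on all 4 arrays (log2 fold change -1.33), and Psg20 and Psg25 on CD 2 alone. Whether the change at Psg23 differed from that at the other Psg genes was not tested.

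Among the genes with a probe, Psg23 lies between Psg21 and Psg27 on chromosome 7, a pair with log2 fold changes of -3.999 and -4.41. The sequence before the start of Psg23 was set against that of Psg21 to show how alike these neighbours are. Both are shown 5′ to 3′ on the minus strand, from RefSeq on GRCm38.p6, for the 250 bases before the annotated start, chr7:18616502-18616751 for Psg23 and chr7:18656726-18656975 for Psg21. Capitals mark the bases that differ between them in the aligned stretch.
Psg23: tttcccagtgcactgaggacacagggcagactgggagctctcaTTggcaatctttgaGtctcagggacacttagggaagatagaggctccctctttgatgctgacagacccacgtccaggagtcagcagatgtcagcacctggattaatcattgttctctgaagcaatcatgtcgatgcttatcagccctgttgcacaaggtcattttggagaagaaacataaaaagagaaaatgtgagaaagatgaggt
Psg21: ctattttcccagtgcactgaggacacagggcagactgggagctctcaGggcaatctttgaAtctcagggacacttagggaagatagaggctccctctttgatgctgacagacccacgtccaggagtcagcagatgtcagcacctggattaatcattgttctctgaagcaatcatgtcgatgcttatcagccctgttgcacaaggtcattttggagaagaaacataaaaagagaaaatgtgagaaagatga
Over the 247 aligned positions, 244 were identical, 2 were mismatched and 1 was a gap, and the annotated starts were offset by a few bases. The genes of this pair had the most alike upstream sequences of the 45 Psg pairs compared (96.1% identity with the overhanging ends counted, median of all pairs 75.2%), and their log2 fold changes were -0.19 and -3.999. The files used here hold no probe sequences, so what else the bright Psg23 probe may bind was not examined.

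The Ceacam genes had the most negative median of the 3 families. Ceacam12 had levels of 0.02 on CD 1, 1.90 on CD 2, -2.51 on HFD 1 and -5.403 on HFD 2. Ceacam11 had levels of 0.49, 2.37, -2.05 and -4.30, and Ceacam5 of -0.61, 0.99, -2.97 and -5.28. All 3 were well above background on every array, and in each the HFD arrays lay below the CD arrays. Ceacam12 fell by 4.91 (standard error 1.20), or 30.1-fold, which was the most negative log2 fold change of all 22909 genes. Ceacam11 fell by 4.61 (standard error 1.02) and Ceacam5 by 4.32 (standard error 0.98). Without CD 2 the log2 fold changes were -3.97, -3.67 and -3.52, and none of the 3 passed. Ceacam14 had levels of -3.84 and -2.01 in the CD livers and was not well above background on the HFD arrays. It was at least 7.21-fold lower, or 3.82-fold without CD 2, where it still passed. Ceacam13 fell by 3.85 (-3.06 without CD 2, where it passed) and Ceacam3 was at least 2.70-fold lower, or 1.23-fold without CD 2. Ceacam9 and Ceacam15 were on no array well above background, and their log2 fold changes of -0.01 and 0.02 have no direction.

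Genes just outside the clusters did not pass the cutoffs. The Prl genes lie in a main cluster and a small Prl2c cluster on chromosome 13, and the Psg and Ceacam genes lie in 1 cluster on chromosome 7. The 10 nearest genes with a probe on either side of each of these 3 clusters, 60 in all, had log2 fold changes between -0.75 and 0.36, and 0 passed. Between the members of the chromosome 7 cluster lay 21 other genes, of which 2 passed. These were Psg-ps1 (-4.38), a pseudogene of the family, and Gm5155 (-4.56), a gene whose symbol names no family and that lies between Ceacam14 and Ceacam11. Without CD 2 neither passed (-3.21 and -3.78). The other 19 had log2 fold changes between -0.65 and 0.22. Other relatives outside the rule did not pass: Ceacam1, a cell adhesion molecule of epithelium and blood vessels, had a log2 fold change of 0.10 and Ceacam2 of 0.01, and pituitary Prl and Gh were at background on all arrays.

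**Figure D2:**
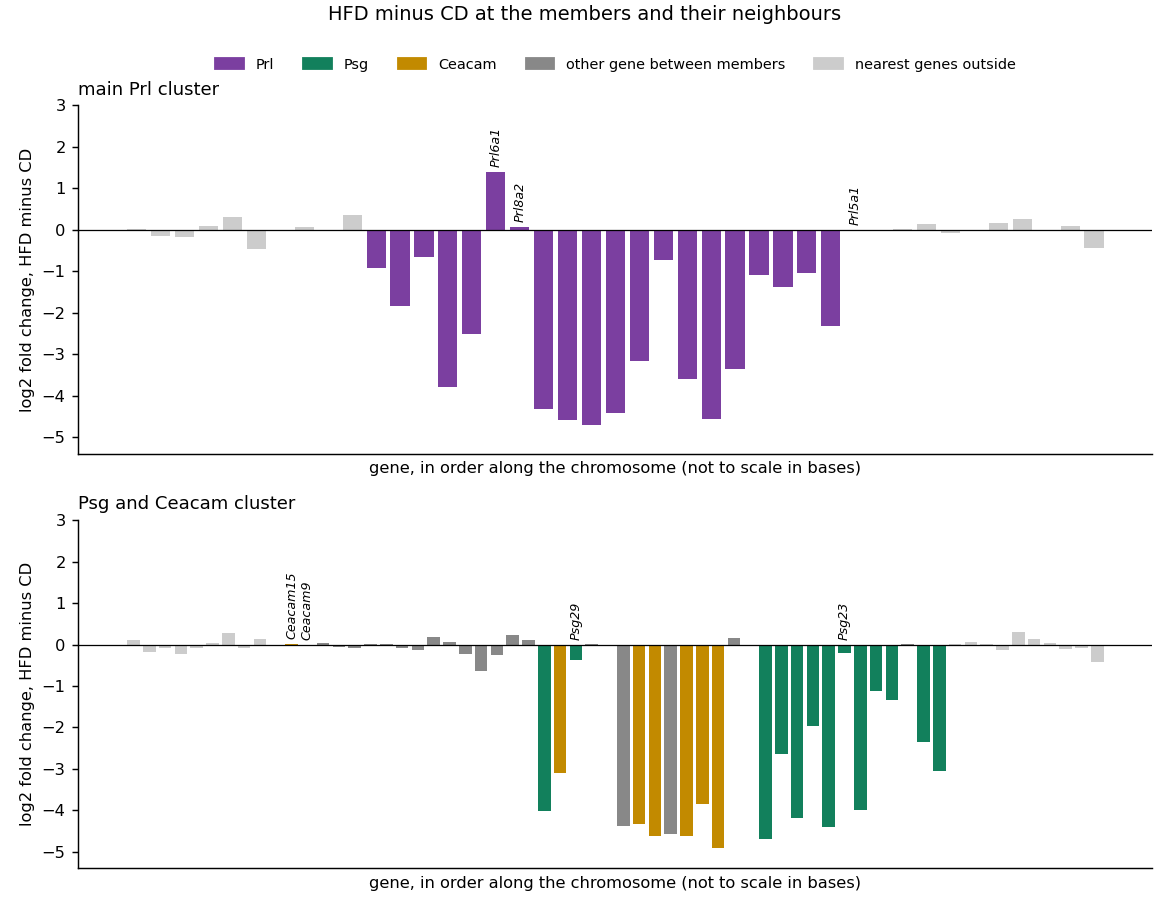
Log2 fold change (HFD minus CD) of each gene with a probe, in the order of the genes along the main Prl cluster (upper panel) and the Psg and Ceacam cluster (lower panel), with the 10 nearest genes on either side in light grey. The light grey bars lie between -0.45 and 0.36, and labels name Prl6a1, Prl8a2, Prl5a1, Ceacam15, Ceacam9, Psg29 and Psg23, which did not pass. Bars of members not well above background on the HFD arrays are fitted values and not bounds.

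The genes also differed between arrays of the same diet, which the diet does not separate. CD 2 was at least 2-fold over CD 1 for 34 of the 44 genes, against 3.57% of all genes, and HFD 2 at least 2-fold under HFD 1 for 19, against 2.01%. For the 32 genes detected on both CD arrays, CD 2 minus CD 1 had a median of 1.79 (SD 0.86), against a median of 0.14 (SD 0.63) over all genes. In the 25 members that passed it ran from -0.29 to 2.35. In 6 genes it was over 3, namely Prl2c3, Prl2c5, Prl3d2, Prl7a1, Prl8a1 and Psg20, with values from 3.05 to 5.77, and of these 6 only Prl2c5 was detected on CD 1. Prl3d2, Prl2c3 and Prl2c5 are known as products of giant cells, but so is Prl3d1, where the difference was 1.45. At Prl2c1, a Prl2c gene by symbol, it was 0.80. HFD 2 minus HFD 1 was most negative at Ceacam12 (-2.90) and most positive at Prl6a1 (1.40). Psg23 and Psg29 were slightly higher on CD 2 than on CD 1 (0.64 and 0.42), and Prl7b1 was lower (-0.96).

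**Figure D3:**
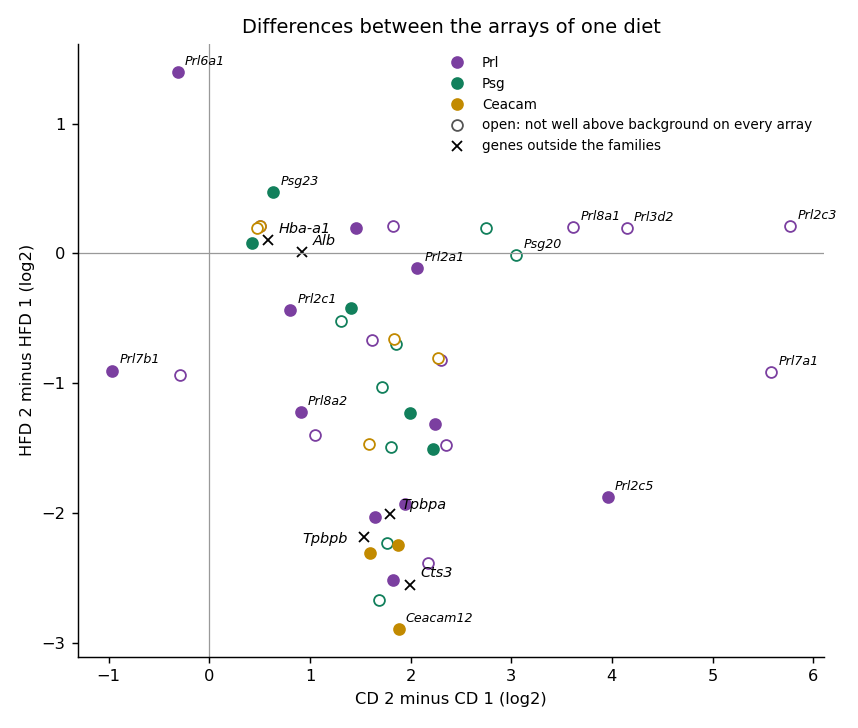
Difference between the arrays of 1 diet for each of the 44 genes, with CD 2 minus CD 1 on the horizontal and HFD 2 minus HFD 1 on the vertical axis (both log2). Filled points were detected on all 4 arrays; most of the genes lie right of 0 and below 0, with Ceacam12 at 1.88 and -2.90 and Prl6a1 at -0.32 and 1.40, and Tpbpa, Tpbpb and Cts3 lie among the members while Alb and Hba-a1 lie near 0 on the vertical axis, at 0.92 and 0.58 on the horizontal.

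Several trophoblast genes outside these families were also lower in the HFD group. Of 23 further trophoblast genes, 9 passed in the lower direction and 0 in the higher, and 4 (Cts6, Cts7, Cts8 and Syna) were on no array well above background. Tpbpa and Tpbpb, markers of the spongiotrophoblast, had levels of 3.01, 4.80, 1.00 and -1.01 and of 1.24, 2.78, -0.87 and -3.05 on CD 1, CD 2, HFD 1 and HFD 2. Tpbpa fell by 3.91 (standard error 0.95) and Tpbpb by 3.97 (standard error 0.94). The placental cathepsins Cts3, Ctsj, Ctsm, Ctsq and Ctsr, the protease gene Pappa2 and the transcription factor gene Tfap2c also passed. Ctsj was detected on CD 2 alone and has no fold. Without CD 2, Cts3, Ctsm and Pappa2 did not pass. Neither did Tpbpa and Tpbpb, with log2 fold changes of -3.01 and -3.20. The log2 fold change of Tfap2c was -1.32 there, and Ctsq and Ctsr were at least 2.69-fold and 1.40-fold lower. Ctsq had the smallest limma adjusted p (0.465) of all 22909 genes, with levels of -4.35 and -4.24 in the CD livers and no detection on the HFD arrays. Gcm1, a transcription factor gene of the labyrinth (levels 5.65, 4.28, 5.44 and 5.599), did not pass, nor did Synb, Peg10, Ascl2, Hand1 and Elf5. The intensity of Gcm1 ran from 13682 to 53809, while that of Synb ran from 27.6 to 33.7. What else the bright Gcm1 probe may bind was not examined. Of the 20 genes with the most negative log2 fold changes on the arrays, 15 were members, and the other 5 were Cts3, Gm5155, Psg-ps1, Tpbpb and Tpbpa.

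Several genes of the uterus varied between arrays in another order. Of the 6 natural killer cell genes, the granzymes Gzmd, Gzme, Gzmf and Gzmg, which are products of uterine natural killer cells, were higher on CD 1 and HFD 1 than on CD 2 and HFD 2, and Gzme had levels of 1.45 and -4.08 in the CD livers against 0.84 and -1.71 in the HFD livers. The other 2 did not share that order. Gzma had levels of -2.78, -2.60, -2.30 and -2.27 on CD 1, CD 2, HFD 1 and HFD 2, and Prf1 of -1.33, -1.28, -1.37 and -1.51. Hoxa10, a transcription factor gene of the uterus and other posterior tissues, had levels of 1.36, -1.55, 0.46 and 0.84. CD 2 was thus the highest array for most placental genes and the lowest for Hoxa10 and those 4 granzymes. None of the 6 uterine, 6 natural killer cell or 5 yolk sac genes examined passed. Summed over the list, the intensity of the 44 members, each scaled to the 75th percentile, was 48.2 and 107 in the CD livers and 36.5 and 46.4 on the HFD arrays. Without Psg23 it was 14.4 and 54.3 in the CD livers and 5.18 and 2.83 on the HFD arrays. The same sum over the 23 other trophoblast genes was 65.2, 61.2, 48.4 and 51.8, of which Gcm1 gave a large part, and without Gcm1 it was 15.04, 41.8, 5.17 and 3.32. It was, over the 6 natural killer cell genes, 4.71, 0.668, 3.27 and 1.00. The part of these cells in the results was not tested.

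**Figure D4:**
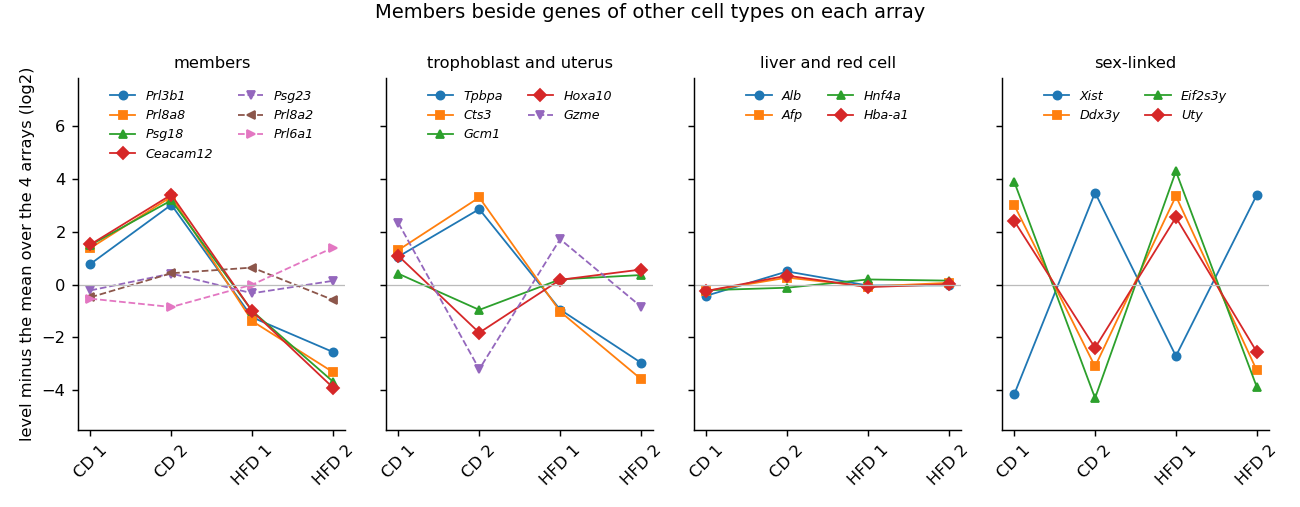
Level of each gene minus its mean over the 4 arrays (vertical axis, log2) on CD 1, CD 2, HFD 1 and HFD 2, for members, for genes of trophoblast and uterus, for liver and red cell genes and for sex-linked genes. Lines join the points of 1 gene only as a guide; Prl3b1, Prl8a8, Psg18 and Ceacam12 follow Tpbpa and Cts3 over the arrays, Gzme and Hoxa10 are lowest on CD 2, the liver genes stay near 0, and the sex-linked genes alternate with the replicate number.

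The genes that receive and pass on the signal of these hormones did not pass the cutoffs. Prlr, the prolactin receptor through which placental lactogens act on the liver and other organs, had levels of -2.33 and -3.11 in the CD livers against -2.62 and -1.83 in the HFD livers, and its log2 fold change of 0.50 (standard error 0.42) lay within the spread. Of 10 receptor and signalling genes, 0 passed in either direction. Cish and Socs2, targets of the Stat5 pathway that the prolactin receptor activates, had log2 fold changes of 0.13 and 0.05, and Stat5a and Stat5b of 0.16 and 0.16. Cd9, a binding partner of Psg proteins on the cell surface, had a log2 fold change of 0.01. Of 9 transcription factor genes of the trophoblast, 1 passed (Tfap2c, -1.30, standard error 0.27), and Gata2 and Gata3, which bind AGATAA motifs, had log2 fold changes of -0.01 and 0.14.

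The promoter windows were searched for short motifs. RefSeq windows on GRCm38.p6, of 250 bases before to 50 after the start, were at hand for 37 of the 44 genes. AGATAA, the motif of GATA factors, was found on either strand in 15 of the 37 windows (40.5%), against 11.3% of 27025 windows over all genes. It was in 9 of 20 Prl, 1 of 10 Psg and 5 of 7 Ceacam windows. TGANTCA, with any base at N and so wider than the AP-1 motif TGA(C/G)TCA, was in 12 (32.4%), against 7.91% of all windows. TATAAA was in 7 (18.9%, against 14.1%) and CCACCC in 5 (13.5%, against 31%). Members of a family share sequence by descent, so their windows are not independent of each other. Base composition was not matched between their windows and those over all genes. AGATAA was in 11 of the 21 windows of members that passed and in 4 of the 16 of members that did not.

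The 120 bases before the start are shown for 3 genes that fell and for Prl6a1, the 1 gene with both HFD arrays over both CD arrays, with every searched motif on either strand in capitals. They are written 5′ to 3′ in the direction of the gene, and lie at chr13:27513218-27513337 (minus strand) for Prl8a8, chr13:27312495-27312614 (plus strand) for Prl6a1, chr7:17972047-17972166 (plus strand) for Ceacam11 and chr7:18567306-18567425 (minus strand) for Psg27.
Prl8a8: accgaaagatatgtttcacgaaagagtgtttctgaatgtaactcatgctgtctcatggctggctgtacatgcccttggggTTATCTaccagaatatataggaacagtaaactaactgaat
Prl6a1: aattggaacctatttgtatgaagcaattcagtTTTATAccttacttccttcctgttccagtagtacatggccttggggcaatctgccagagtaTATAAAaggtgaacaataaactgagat
Ceacam11: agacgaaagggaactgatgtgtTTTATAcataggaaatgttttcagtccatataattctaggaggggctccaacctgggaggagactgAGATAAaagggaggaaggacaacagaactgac
Psg27: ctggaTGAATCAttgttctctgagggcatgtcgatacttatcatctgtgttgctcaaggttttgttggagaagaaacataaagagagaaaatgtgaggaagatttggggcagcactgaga
The stretch of Prl8a8 held 1 AGATAA (read as TTATCT), that of Ceacam11 held AGATAA and TATAAA (read as TTTATA), that of Psg27 held TGAATCA, a form of TGANTCA, and that of Prl6a1 held TATAAA on both strands. The full window of Prl6a1 also held 1 AGATAA, outside the stretch shown, while that of Psg27 held 0. A match shows only that these letters are in the window. The upstream sequences of Prl2c3, Prl2c5 and Prl7d1 were also alike (94.4% to 96.0% identity, against a median of 54.0% over 190 Prl pairs). Prl7d1 lies in the main Prl cluster and the other 2 in the Prl2c cluster. The log2 fold changes of Prl7d1 and Prl2c5 were -3.36 and -3.41, of which that of Prl2c5 did not pass, while Prl2c3 was detected on CD 2 alone. Those of Prl7d1 and Prl2c5 were -2.18 and -1.43 without CD 2, and -4.54 and -5.39 without CD 1.

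Of the 8 members with 2 probes, the dimmer probe gave the same direction as the brighter one in the 4 where both were detected on both CD arrays (Psg18, Ceacam13, Prl3a1 and Prl6a1). For Prl6a1 the log2 fold changes were 1.39 and 0.63, with both probes detected on all 4 arrays. The dimmer probes of Psg18, Ceacam13 and Prl3a1 were not well above background on either HFD array, nor was the brighter probe of Prl3a1, so their folds are not compared. The dimmer probes of Ceacam12, Prl3c1 and Prl3d1 were detected on no array, and that of Psg22 on CD 2 alone.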

How the data were processed

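Total RNA of fetal livers at 14.5 dpc was labeled with Cy3 and hybridised by the authors to a mouse 8 × 60 K array, and Feature Extraction 11.0.1.1 gave, per the file headers, 62976 spots per array. The authors deposited for each spot an intensity that was background-subtracted and not scaled between arrays, the median brightness, also an intensity, and, as scores of 0 or 1, marks for outlier spots, for saturation and for signal clear of background. They also deposited a table of normalized signal, which was the intensity divided by 1 constant per array. Spots read 65.4% to 70.0% well above background, 0 were saturated and 39 to 58 were flagged per array, and the number of arrays limits the precision.

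From the intensities, log2 was taken, flagged and control spots were left out, spots of a probe were averaged and the 75th percentile of the array was subtracted. Transcripts were matched to RefSeq genes of GRCm38.p6, which named 32986 of 56596 probes. The array grid is of another build, so coordinates are printed only for RefSeq upstream windows, on GRCm38.p6. All genes were fitted together in R 4.3.3 with limma 3.58.1 (lmFit and eBayes, HFD minus CD, no covariates, no filter), with Benjamini-Hochberg adjustment over 22909 genes. limma was chosen because the methods name no test for the arrays. Upstream sequences were compared by global alignment. Tables and figures were made with pandas 2.3.3, numpy 2.4.6 and matplotlib 3.10.9 under Python 3.11.15.

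The members, the gene lists and the tests were chosen with earlier results of these data known. Lists were written by hand for liver, red cells, other trophoblast, uterus, uterine natural killer cells, yolk sac, pituitary, relatives, receptors and signalling, trophoblast transcription factors and sex-linked genes. Of the pituitary list, which gave 0 calls, Pomc alone was detected. Named genes were, per family, those with the highest mean level (5 Prl, 5 Psg, 3 Ceacam), the 2 most negative and the 2 least negative or most positive log2 fold changes, every member higher on average in the HFD group, and from the lists Tpbpa, Tpbpb and the 2 members with the highest mean level. Every other gene given with values was chosen after its values were seen. A comparison of protein sequences was planned and is not reported here. A check of whether same-numbered arrays pair (correlation of their deviations from the group means over 22909 genes, r = 0.0022) gave no pairing over all genes, although sex-linked transcripts split by replicate number. The alternatives were other normalization, background correction (normexp with offset 50, on the median brightness), scaling, filters, probe summaries, variance priors, tests and the replicate block, the deposited table, and leaving out each array. The fitting step was tested on simulated data.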

Additional observations from a re-analysis of the deposited data

How the results depend on the processing

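The count of members lower in the HFD group was 25 and lay between 17 and 34 under the other normalizations, scalings, filters, probe summaries, variance prior and replicate block, apart from the filters of the methods with the CV on the linear scale and the t-tests. Over the same settings, 0.153% to 1.33% of all genes tested were lower, against 0.834% in the main fit. With the linear CV filter 15 members were tested and 7 were lower, against 0.479% of all genes tested. There 11 members had both HFD arrays under both CD arrays, and the medians were -1.33 (all), -1.06 (Prl) and -0.85 (Psg). The methods' t-test left 1 member lower, against 0.227% of all genes. With Welch correction it left 0, against 0.109%, and 0 members also had an unadjusted p under 0.05. Prl6a1 was the 1 member called higher with median scaling, the filter on genes well above background, the linear CV filter, every probe as a feature, the mean over probes, the variance trend and the replicate block. With normexp the medians were -0.98 (all), -0.83 (Prl), -1.0 (Psg) and -1.63 (Ceacam), and 2 members had both HFD arrays over both CD arrays; the cause was not tested. Leaving out 1 array gave 13 to 35 members lower, 0 to 1 higher, 34 to 41 with groups apart in the lower and 1 to 8 in the higher direction, and medians of -4.11 to -1.70 (all), -3.91 to -1.24 (Prl), -3.50 to -1.78 (Psg) and -4.88 to -3.14 (Ceacam). Without an HFD array limma gave every gene the same spread, so those p-values are not comparable with the others. A group of 1 array lies apart from the other group more easily by order alone. The leave-one-out counts with groups apart are therefore not comparable with those over all arrays, and their rise is not stronger agreement. The share of all genes that passed in the lower direction also rose whichever array was left out. With the replicate block 34 members were lower and 1 higher, and 27 passed after adjustment over all genes, against 0 without it. The block raised the calls over all genes as well. Of all 22909 genes, 1.33% were lower with it, against 0.834% without it, and 219 passed after adjustment, against 0. The deviations of same-numbered arrays were uncorrelated over all genes (r = 0.0022), but sex-linked transcripts split by the same number, so the block is also a block on them, and its part in these calls was not tested. Direction turned for genes near 0 (leave-one-out values as lowest to highest). Prl5a1 went to -0.0019 with quantile normalization and from -0.25 to 0.26 with 1 array left out, Ceacam9 to 0.0054 with median scaling and from -0.25 to 0.23, Ceacam15 from -0.23 to 0.27, Prl8a2 from -0.56 to 0.67 and Psg23 from -0.51 to 0.13. Among the 22 named list genes, Cd9 went to -0.054 with quantile normalization and -0.083 with normexp, under which Ceacam2 went to -0.0018 and Xist to -0.047, Afp to 0.0042 with median scaling, and Ceacam1 to -0.26 with the mean over probes. With 1 array left out Afp ranged from -0.27 to 0.24, Alb from -0.53 to 0.39, Apoa4 from -0.064 to 1.03, Cd9 from -0.24 to 0.27, Ceacam2 from -0.17 to 0.20, Eif2s3y from -3.69 to 4.501, Gcm1 from -0.13 to 1.24, Gzme from -1.89 to 3.65, Hba-a1 from -0.38 to 0.20, Hbb-bt from -0.415 to 0.24, Hoxa10 from -0.71 to 2.20, Pomc from -0.33 to 0.042, Rbp4 from -0.41 to 0.34, Stat5a from -0.038 to 0.35, Wnt4 from -0.24 to 1.09 and Xist from -3.14 to 4.497. Tpbpa and Tpbpb kept their direction throughout and lost the call under both t-tests and without CD 2. Over the 21 named members and all alternatives, 293 values kept direction and call, 34 lost the call, 12 gained it and 12 turned, and over the list genes the counts were 345, 6, 6 and 29. With 2 arrays per group an exact permutation test cannot go below p = 0.333, and 17 members not well above background on either HFD array have no measured level there.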
